A study of Mus musculus with 4 samples.

Results

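Effector and exhausted CD8 T cells were examined in tumor-infiltrating immune cells of subcutaneous KPC tumors from untreated mice, from mice treated with ADU-S100, with anti-LTβR, or with both (combination). A cell was taken when it had 300 to 5000 genes and at most 6% of unique molecular identifiers (UMIs) from mitochondrial genes, at least 2 of the 5 T cell genes Cd3d, Cd3e, Cd3g, Trac and Trbc2, a UMI of Cd8a or Cd8b1 with Cd4 at 0, and UMIs of at least 2 of the 4 genes Pdcd1, Havcr2, Lag3 and Gzmb. Of 51841 cells within the limits on genes and mitochondrial UMIs, 1158 met the rule, 409 in the untreated library, 134 in ADU-S100, 307 in anti-LTβR and 308 in the combination. The remaining CD8 T cells, which passed the T cell and CD8 conditions but had UMIs of none or 1 of the 4 genes, numbered 131, 103, 419 and 385 in the same order and are called other CD8 T cells here.

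KPC cells are a mouse pancreatic cancer line from mice in which Pdx1-driven Cre switches on mutant alleles, and they were grown in male C57BL/6NHsd mice of 8 to 10 weeks. ADU-S100, an agonist of the DNA sensing adaptor STING, was injected once into the tumor at 2 µg on day 0, and the agonist antibody against the lymphotoxin β receptor (clone 4H8, LTβR) was given intraperitoneally in 4 injections of 100 µg until day 10. Tumors were resected on day 14, and 10 tumors per group were pooled before live CD45+ cells were sorted, so that each group is 1 library with no replicate. The study made single-cell libraries in 2 independent experiments, of which 1 is described here and the other was not analysed here. All intervals below are 95% intervals that cover counting error only, no p-values are given, and the comparisons with untreated tumors share the untreated library.

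CD8 T cells kill cells that present foreign or tumor peptides, using perforin, granzymes and interferon γ. Under lasting antigen they pass from Tcf7-expressing progenitors into cells that keep inhibitory receptors such as PD-1 (Pdcd1), TIM-3 (Havcr2) and LAG-3 and that express the transcription factor Tox, a state known as exhaustion. Detection of the inhibitory receptors and granzyme B does not separate an activated effector cell from an exhausted one.

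The cells were selected on detection of Pdcd1, Havcr2, Lag3 and Gzmb, and the values of these genes are therefore a description. UMIs of Pdcd1, which encodes the receptor PD-1, were found in 91.4% of the untreated, 86.6% of the ADU-S100, 86.0% of the anti-LTβR and 79.5% of the combination cells. Granzyme B (Gzmb) was found in 67.7%, 70.9%, 70.4% and 56.2%, at 814, 1282, 1368 and 847 UMIs per 1000000 UMIs of these cells (CPM). Havcr2 reached 322 to 438 CPM and Lag3 317 to 477 CPM. As a background, cells gated as macrophages had Pdcd1 and Gzmb in under 1%, whereas Havcr2 was found in 48.4% to 57.8% of them and was thus not particular to T cells in these tumors.

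The label was then checked against genes outside the rule. Perforin (Prf1) was at 1059, 987, 1497 and 1194 CPM in the selected cells against 119, 66.3, 66.9 and 165 CPM in other CD8 T cells, and Tox was at 1578, 599, 953 and 1081 CPM against 807, 271, 406 and 530 CPM. Cells with exactly 2 of the 4 genes, just inside the rule, had Tox at 1535, 428, 767 and 968 CPM, and cells with exactly 1, just outside, at 1062, 327, 438 and 751 CPM. Tcf7 in the same pair of classes was at 59.6, 117, 92.0 and 16.3 CPM inside and 144, 353, 310 and 247 CPM outside. The cells just outside the rule therefore lay between the members and the cells with none of the 4 genes, where Tox was at 220 to 584 CPM and Tcf7 at 494 to 694 CPM.

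Some of the selected barcodes carried genes of other cells. At least 3 of 10 myeloid or B cell genes were found in 37 (9.05%), 17 (12.7%), 21 (6.84%) and 40 (13.0%) of them, and at least 20 UMIs of immunoglobulin light chain genes and Jchain in 0, 0, 1 and 5. The γδ T cell gene Trdc had a UMI in 1 to 3 cells per library and the regulatory T cell gene Foxp3 in 0 to 2. Between 34 and 83 barcodes were shared by any pair of libraries, and no selected barcode was shared. Depth differed between libraries, with a median of 5801, 6127, 4486 and 2746 UMIs per selected cell, so the combination cells had the fewest. Other CD8 T cells had medians of 4244, 4517, 3750 and 2385 UMIs.

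The first question was how much of the CD8 compartment, and of all immune cells, these cells made up. They were 409 of 540 CD8 T cells in untreated tumors, or 75.7% (71.9 to 79.3). ADU-S100 tumors had a share of 56.5% (49.97 to 62.9), anti-LTβR tumors one of 42.3% (38.7 to 46.0), and combination tumors one of 44.4% (40.7 to 48.2). Relative to untreated tumors, the share was 0.746 times as large (0.661 to 0.843) after ADU-S100, 0.558 times (0.506 to 0.615) after anti-LTβR, and 0.587 times (0.533 to 0.646) after both. Anti-LTβR and the combination were not told apart (ratio of combination to anti-LTβR 1.05, 0.933 to 1.18), whereas the combination lay below ADU-S100 (0.786, 0.684 to 0.904).

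Because a deep cell more readily shows 2 of 4 genes, each CD8 T cell was also thinned to 1000 UMIs before the 4 genes were read. The shares were then 34.6% (30.6 to 38.8), 28.6% (22.9 to 34.9), 22.5% (19.4 to 25.7) and 22.9% (19.7 to 26.3) in the order untreated, ADU-S100, anti-LTβR and combination, with 3, 3, 9 and 47 shallower cells left out. Anti-LTβR tumors now had 0.648 times (0.542 to 0.775) the untreated share, and combination tumors 0.661 times (0.551 to 0.794). For ADU-S100 the interval of the ratio included 1 at this depth (0.827, 0.655 to 1.04), and the same held for the combination against ADU-S100 (0.8001, 0.625 to 1.02). This thinning was added after seeing the data. With the T cell and CD8 conditions read in thinned cells as well, 134 of 325, 42 of 116, 118 of 344 and 113 of 353 CD8 T cells met the rule. The interval of the ratio to untreated then included 1 for anti-LTβR too (0.832, 0.684 to 1.01) and for ADU-S100 (0.878, 0.668 to 1.16), and it stayed below 1 for the combination (0.776, 0.636 to 0.948).

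**Figure D1:**
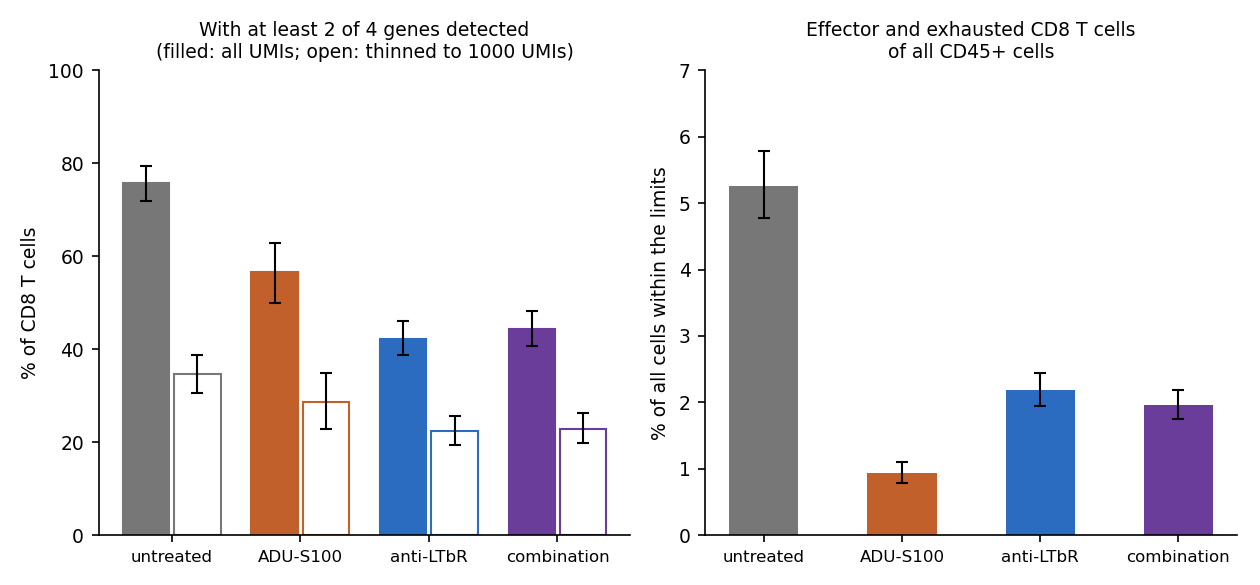
Share of CD8 T cells with at least 2 of Pdcd1, Havcr2, Lag3 and Gzmb (left, percent, filled bars with all UMIs and open bars after thinning each cell to 1000 UMIs) and share of all CD45+ cells within the limits (right, percent), by library, with exact 95% binomial intervals. The untreated library is highest in all 3 series of bars, at 75.7%, 34.6% and 5.26%, and ADU-S100 is lowest among all CD45+ cells, at 0.935%.

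Of all CD45+ cells, the selected cells made up 5.26% (4.77 to 5.78) in untreated, 0.935% (0.784 to 1.11) in ADU-S100, 2.19% (1.95 to 2.44) in anti-LTβR and 1.96% (1.75 to 2.19) in combination tumors. In the last 3 libraries the ratio to the untreated share was 0.178 (0.147 to 0.216), 0.416 (0.359 to 0.481) and 0.373 (0.323 to 0.431). The combination held 2.10 times (1.71 to 2.57) the ADU-S100 share, and its share relative to anti-LTβR was 0.897 (0.767 to 1.05). Most of the ADU-S100 difference was that of CD8 T cells as a whole, whose share of CD45+ cells was 0.238 times (0.205 to 0.277) that of untreated tumors. A share of sorted cells also moves with the number of other cells in the sort, and the cell number per tumor is not in these data.

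The number of the 4 genes found per cell is part of the rule and is given as a description. All 4 were found in 30.6% of CD8 T cells of untreated tumors, 19.4% with ADU-S100, 15.0% with anti-LTβR and 7.22% with the combination. None was found in 13.7%, 22.4%, 41.2% and 36.2%. The combination thus had the lowest share of cells with all 4 genes, and also the lowest depth per cell.

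The selected cells were next set against other CD8 T cells within each library. Since the rule made this contrast, these values are a description. Among 2943 genes with at least 100 UMIs in each library, 82 were at least 2-fold higher (2.79%) and 48 at least 2-fold lower (1.63%) in all 4 libraries, and 32.0% were above 0 and 26.9% below 0 in all 4. The naming rule took the 10 genes with the highest and the 10 with the lowest median log2 ratio. On the high side these were Serpine2, a protease inhibitor (median 3.77), Klrh1 (3.64), Nrgn (3.52), Prf1 (3.51), Sv2c (3.43), Myo10 (3.01), Slc17a6 (2.95), Ifng (2.71), Sema6d (2.58) and Rgs16, a regulator of G protein signaling (2.57). On the low side, 9 of the 10 were Tcf7, the transcription factor of naive and progenitor T cells (-4.10), Lef1 (-3.62), Cmah (-3.33), Aff3 (-3.30), Fam241a (-3.24), Sidt1 (-3.16), Fgf13 (-2.54), Klf2 (-2.53) and Gramd3 (-2.48).

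Gene lists were then read in the same way. Of 15 tested cytotoxic and effector genes, 11 were at least 2-fold higher in all 4 libraries (list median log2 1.70), with Ccl5 at 1.65, 1.15, 1.83 and 1.74. Among 8 other inhibitory receptors, Ctla4 (1.58, 2.03, 2.74 and 2.25) and Tigit (1.56, 1.64, 2.47 and 1.97) were at least 2-fold higher throughout, and the list median was 1.19. Of 12 progenitor and memory genes, 6 were at least 2-fold lower in all 4 (median -1.56). All 9 glycolysis genes were above 0 in all 4 libraries (median 0.71), and 13 of 16 interferon-stimulated genes were below 0 in all 4 (median -0.48), against 32.0% and 26.9% of all tested genes. The interferon-stimulated median was -1.01 in untreated cells and -0.44, -0.51 and -0.45 in the treated libraries. Other lists differed between libraries, with medians of 0.02, 0.80, 1.11 and 1.14 for effector memory and killer receptor genes and of -0.27, 0.36, 0.00 and 0.05 for tissue residency and chemokine receptor genes. The 12 cell cycle genes were also above 0 throughout (median 0.85), but their median was -0.06 once cells were thinned to 1000 UMIs before the rule was applied. The other medians moved as well, to 0.91 for the cytotoxic and effector genes, 0.82 for the inhibitory receptors, -1.52 for the progenitor and memory genes, 0.63 for the glycolysis genes and -0.22 for the interferon-stimulated genes. After that thinning the number of genes at least 2-fold apart in all 4 libraries was 9 higher and 18 lower, and the 9 low genes given here kept their side in all 4 libraries, as did 7 of the 10 high genes. The exceptions were Klrh1, Slc17a6 and Sema6d.

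**Figure D2:**
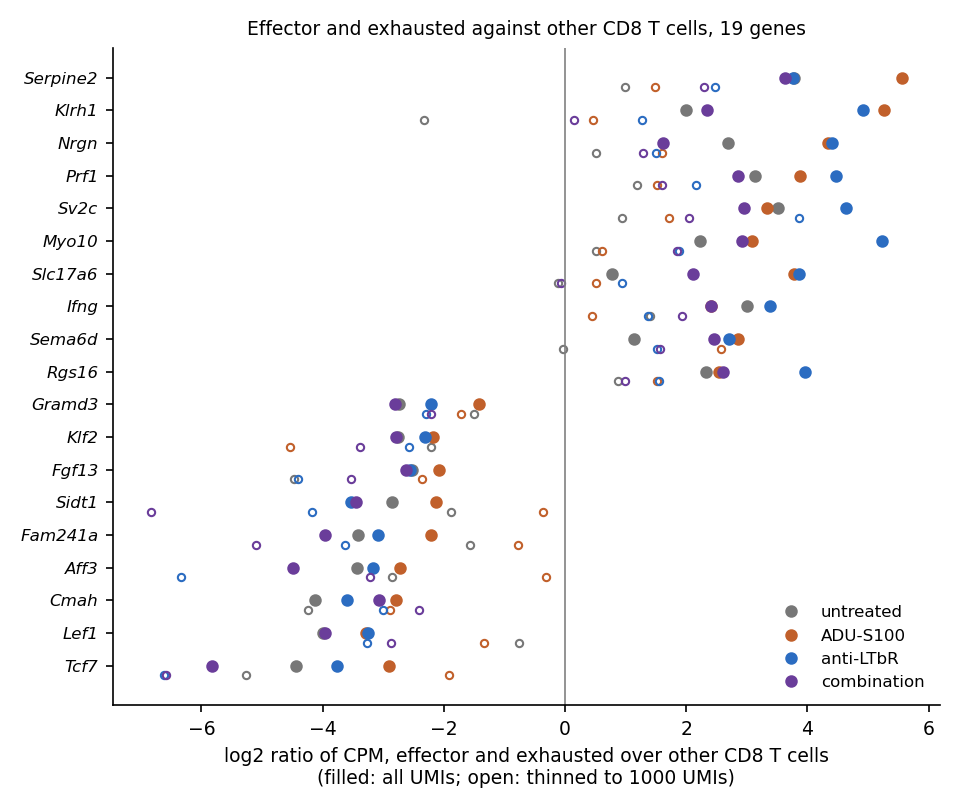
Log2 ratio of CPM between effector and exhausted CD8 T cells and other CD8 T cells (x axis) for the 19 genes named in the text (y axis), 1 point per library, filled with all UMIs and open after thinning to 1000 UMIs. With all UMIs the upper 10 genes lie above 0 and the lower 9 below 0 in all 4 libraries, and the open points of Klrh1, Slc17a6 and Sema6d cross 0 in at least 1 library.

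Within the selected cells, UMIs were then summed per library and compared between groups. A gene was compared when it had at least 100 UMIs over the 2 libraries, and it is called higher or lower when the CPM differed at least 2-fold (log2 ratio of 1 or more, with 0.5 UMI added). With ADU-S100 against untreated, 128 of 5765 genes were higher (2.22%) and 62 lower (1.08%). With anti-LTβR, 72 of 6412 were higher (1.12%) and 28 lower (0.437%), and with the combination 157 of 5934 were higher (2.65%) and 42 lower (0.708%). The combination had 59 of 3866 genes higher (1.53%) and 32 lower (0.828%) than ADU-S100, and 83 of 4875 higher (1.70%) and 12 lower (0.246%) than anti-LTβR. Without the cells with at least 3 myeloid or B cell genes, 67 genes were higher and 58 lower with ADU-S100, 57 and 22 with anti-LTβR and 55 and 34 with the combination, and the combination had 38 higher and 21 lower than ADU-S100 and 25 higher and 12 lower than anti-LTβR. Without the limits on genes and mitochondrial UMIs, 73 were higher and 72 lower with the combination against untreated, 56 and 128 with anti-LTβR, 193 and 102 with ADU-S100, and 39 and 77 in the combination against ADU-S100. The list counts below are to be read against the shares given first. The summed UMIs were 2678305, 902789, 1629062 and 1067108.

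Genes of other cell types were among the higher genes. The summed level of 8 neutrophil genes in the selected cells was 249 CPM in untreated, 2081 CPM in ADU-S100, 940 CPM in anti-LTβR and 2402 CPM in the combination, with 4 of the 8 at 0 in the untreated cells. That of 10 macrophage genes was 2326, 2684, 2180 and 4454 CPM, against 14588 to 18581 CPM in cells that were no T cells, and that of 8 B and plasma cell genes was 59.0, 38.8, 1706 and 5256 CPM. All 3 tested neutrophil genes (S100a8, S100a9 and Il1b) were at least 2-fold higher than untreated in each treated library. Without the cells with at least 3 myeloid or B cell genes, 43 of the 50 values named by size below could be formed, all in the same direction, and 35 of 36 remained past 2-fold. The list counts themselves were not formed again without these cells. Of the values of named genes and selected list genes, 31 then moved out of their interval, 1 reversed and 101 stayed within it. Genes at a higher level in non-T cells than in the selected cells were left out of the genes named by size.

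Main molecules of the cytotoxic program stayed within 2-fold of each other between groups. Nkg7, a protein of cytotoxic granules, was at 2599, 2521, 2567 and 2626 CPM in untreated, ADU-S100, anti-LTβR and combination cells. The chemokine gene Ccl5 was at 4626, 3817, 3628 and 4030 CPM. Ifng was at 388 (364 to 412) CPM in untreated, 655 (603 to 710) CPM in ADU-S100, 464 (432 to 498) CPM in anti-LTβR and 410 (372 to 450) CPM in combination cells. The level of Ifng was thus highest with ADU-S100, by a log2 ratio of 0.76 that stayed below 2-fold. The share of cells with Ifng did not follow this order, at 53.5%, 48.5%, 53.7% and 43.8%. At 1000 UMIs, with the rule also read in thinned cells, it was highest in the combination, at 23.9%, 31.0%, 28.8% and 38.1%. The ratio of the combination to untreated was then 1.59 (1.09 to 2.34), against 0.819 (0.701 to 0.956) at full depth. When the cells selected with all UMIs were thinned instead, the shares lay closer together, at 20.8%, 26.3%, 25.7% and 28.2%. Prf1 was highest with anti-LTβR, at a log2 ratio of 0.50 to untreated.

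Individual granzymes differed more. Gzma, a granzyme of effector and memory cells, was at 63.8 CPM in untreated cells and at 528, 475 and 400 CPM in the 3 treated libraries. It was found in 17 of 409, 26 of 134, 50 of 307 and 30 of 308 cells, and 1 cell held 50.9%, 48.2%, 16.4% and 61.8% of the UMIs in untreated, ADU-S100, anti-LTβR and combination cells. The log2 ratio to untreated was 2.89 (2.65 to 3.14) with anti-LTβR. Gzmf, which lies in the granzyme cluster with Gzmc to Gzme, was at 140 CPM in untreated, 866 CPM in ADU-S100, 202 CPM in anti-LTβR and 144 CPM in the combination, in 22, 14, 21 and 17 cells. Gzmd was at 4.48, 103, 5.52 and 14.99 CPM in 4, 5, 4 and 2 cells. Gzmc was lower with the combination, at 24.4 CPM (9 cells) against 77.3 CPM (16 cells), a log2 ratio of -1.64 (-2.31 to -1.07). These granzymes were confined to few cells, so that a few cells set each level. Neighboring granzyme genes are close in sequence, and their counts may share reads.

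By list, 3 of 17 tested cytotoxic genes were higher with ADU-S100 (Gzma, Gzmd and Gzmf) and none lower, with a list median of 0.44 against -0.04 over all genes. With anti-LTβR 1 of 16 was higher (Gzma, list median -0.03). With the combination 1 of 16 was higher (Gzma) and 2 lower (Gzmc and the chemokine gene Xcl1; list median -0.08). Against ADU-S100 the combination had 4 of 16 genes lower, Gzmd, Gzmf, Xcl1 and Serpinb6b, and the list median was -0.64.

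Tox, the factor that holds the exhausted state, was below the untreated level in each treated library, by more than 2-fold with ADU-S100. The level was 1578 (1530 to 1626) CPM in untreated, 599 (550 to 652) CPM in ADU-S100, 953 (907 to 1002) CPM in anti-LTβR and 1081 (1020 to 1146) CPM in combination cells, and no 2 of these intervals overlapped. On the log2 scale these cells were at -1.40, -0.73 and -0.54 relative to untreated. Without the cells with at least 3 myeloid or B cell genes the log2 ratios were -1.28, -0.74 and -0.35. Tox was found in 93.2%, 70.1%, 76.2% and 82.1% of the cells, against 0.433% to 1.91% of cells gated as macrophages. At 1000 UMIs, with the rule also read in thinned cells, the shares were 70.1%, 42.9%, 44.9% and 59.3%. The ratio of the ADU-S100 share to the untreated one was then 0.611 (0.424 to 0.881). For anti-LTβR this ratio was 0.640 (0.5096 to 0.804), and for the combination the interval included 1 (0.845, 0.7000 to 1.02). In other CD8 T cells Tox was at 807 CPM in untreated and at 271, 406 and 530 CPM in the treated libraries, with the same order of groups as in the selected cells. The related gene Tox2 was at 41.8, 15.5, 35.0 and 51.5 CPM.

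Of the 18 exhaustion and effector transcription factors, Tox and Tox2 were lower and Nr4a3 and Irf4, both induced by T cell receptor signaling, were higher with ADU-S100. Nr4a3 was at 160, 393, 208 and 294 CPM, but was at 263 to 357 CPM in non-T cells of the same libraries. None of the 18 was 2-fold apart with anti-LTβR or with the combination, where at most 2.65% of all tested genes were higher and 0.708% lower. Tbx21 (152 to 226 CPM), Eomes (44.3 to 53.4 CPM) and Prdm1 (137 to 175 CPM) stayed within a narrow range, and the list medians against untreated were -0.19, -0.02 and 0.03.

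Of the other inhibitory receptors, Ctla4 was at 932, 773, 861 and 883 CPM and Tigit at 389, 307, 302 and 336 CPM. None of the 11 tested receptors was 2-fold apart from untreated in any treated library. Among all tested genes at most 2.65% were higher and 1.08% lower, so a list of this size would hold few calls. The list medians were -0.01, 0.00 and -0.21, and single log2 ratios lay between -0.81 and 0.83. The 1 call was Cd200r4, higher in the combination (60.0 CPM, 46 cells) than with anti-LTβR (28.9 CPM, 37 cells), at a log2 ratio of 1.05 (0.49 to 1.63).

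Some progenitor and memory genes were at least 2-fold higher than in untreated cells. With ADU-S100, 4 of 9 tested genes were higher and none lower (list median 0.95), namely Il7r, the interleukin 7 receptor, Ccr7, a lymph node homing receptor, Klf2 and Ly6c2. With anti-LTβR, 4 of 12 were higher (Tcf7, Lef1, Klf2 and Ly6c2; list median 0.69), and with the combination 1 of 9 (Ly6c2; list median 0.54). Against ADU-S100 all 9 tested genes lay below 0 in the combination, as did 53.8% of all tested genes, and Ccr7 was more than 2-fold lower (list median -0.56). The summed level of the 17 genes of the list was 1985, 3368, 2867 and 2360 CPM in the selected cells, 5720, 7002, 7188 and 7080 CPM in other CD8 T cells and 1952, 3004, 2679 and 2542 CPM in non-T cells, with the untreated library lowest in each. Without the members that carried the most frequent β chain V gene of their library, Ly6c2 in the combination was at a log2 ratio of 0.16 to untreated, and without the 5 cells with light chain UMIs at 0.15.

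Il7r was at 158 (143 to 173) CPM in untreated, 412 (371 to 456) CPM in ADU-S100, 268 (244 to 295) CPM in anti-LTβR and 230 (202 to 260) CPM in combination cells. In non-T cells of these libraries it was at 139, 271, 193 and 162 CPM, with the same order of groups. Ccr7 with ADU-S100 came from 17 cells, of which 1 held 42.1% of the UMIs. Ltb, which encodes the ligand chain that binds the LTβR, was at 204, 202, 199 and 206 CPM and thus differed between groups by less than its counting intervals.

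Tcf7 was found in 18 of 409 untreated cells (4.40%, 2.63 to 6.87), in 22 of 134 with ADU-S100 (16.4%, 10.6 to 23.8), in 24 of 307 with anti-LTβR (7.82%, 5.07 to 11.4) and in 5 of 308 with the combination (1.62%, 0.529 to 3.75). Other CD8 T cells had Tcf7 in 52.7%, 70.9%, 71.4% and 57.9%, and macrophage-gated cells in 0.253% to 0.702%. The share with ADU-S100 was 3.73 times (2.06 to 6.74) that of untreated cells, and the share in the combination was 0.369 times (0.138 to 0.983). At 1000 UMIs Tcf7 was found in 0 of 134, 2 of 42, 0 of 118 and 0 of 113 cells, when the rule was also read in thinned cells, and the 3 shares of 0 allow up to 2.72%, 3.08% and 3.21%. When the cells selected with all UMIs were thinned instead, Tcf7 was found in 8 of 408, 9 of 133, 8 of 304 and 2 of 298. The share with ADU-S100 was then 3.45 times (1.36 to 8.76) that of untreated cells and the share in the combination 0.0992 times (0.0217 to 0.453) that with ADU-S100, whereas the interval of the combination against untreated included 1 (0.342, 0.0732 to 1.6002).

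Cycling cells were counted by a UMI of Mki67 or Top2a. They were 46.2% (41.3 to 51.2) of untreated, 43.3% (34.8 to 52.1) of ADU-S100, 40.4% (34.9 to 46.1) of anti-LTβR and 34.4% (29.1 to 40.01) of combination cells, against 14.8% to 21.95% of macrophage-gated cells, whose depth per cell was higher. At 1000 UMIs, with the rule also read in thinned cells, the shares were 14.9%, 16.7%, 15.3% and 14.2%, and their intervals overlapped. Of 22 to 23 tested cell cycle genes none was 2-fold apart from untreated in any treated library. Among all tested genes at most 2.65% were higher and 1.08% lower.

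**Figure D3:**
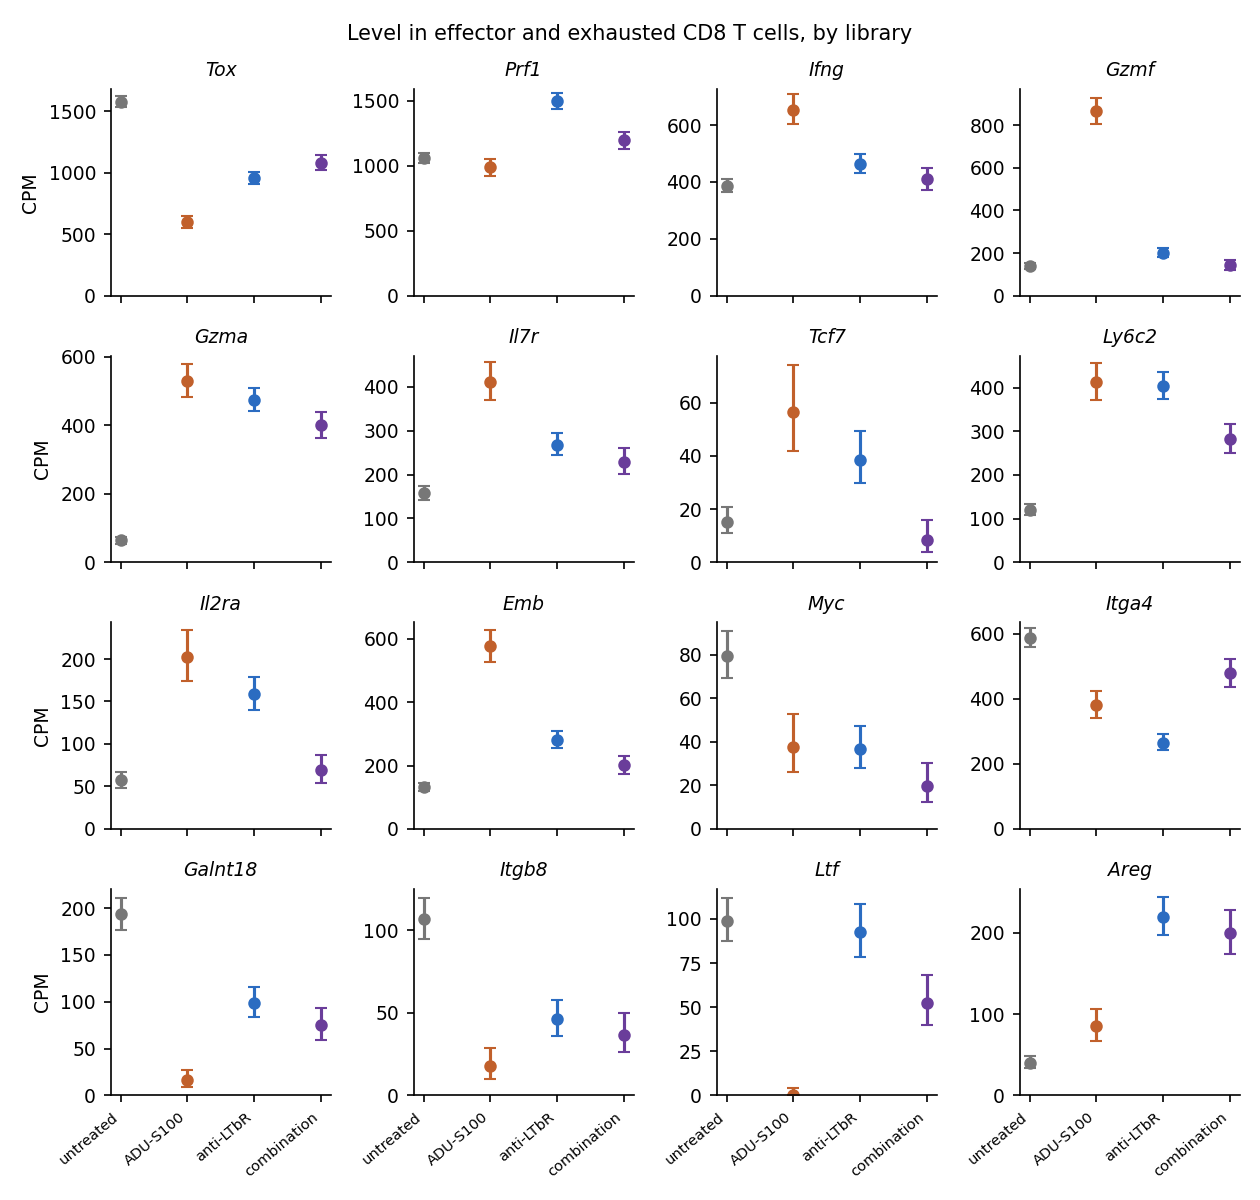
Level of 16 genes in effector and exhausted CD8 T cells, in CPM of the summed UMIs (y axis, from 0), by library (x axis), with exact 95% Poisson intervals. Tox is highest in untreated cells at 1578 CPM, Gzmf and Emb stand out in ADU-S100 at 866 and 576 CPM, and Areg is highest in anti-LTβR and the combination at 220 and 200 CPM.

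Genes named by size were those with UMIs in at least 10 cells, no cell with over 25% of the UMIs and a level at or above that of non-T cells in the library where they were higher, so that Gzmd, Gzma and Gzmf with ADU-S100 and Gzma with the combination, whose log2 ratios to untreated were larger (4.47, 3.05, 2.63 and 2.65), are not among them. Among the genes that passed these filters, the 5 highest in ADU-S100 over untreated cells were Dhx40, an RNA helicase family gene, at 294 against 60.9 CPM (log2 ratio 2.27, 1.98 to 2.56), Emb, which encodes the adhesion protein embigin, at 576 against 131 CPM (2.13, 1.93 to 2.33), Il2ra, the high-affinity interleukin 2 receptor chain, at 203 against 57.1 CPM (1.83, 1.51 to 2.15), Ly6c2 (1.77, 1.55 to 1.99) and Klk8 (1.66, 1.13 to 2.19). Dhx40 was also at a higher level in non-T cells with ADU-S100, at 145 against 62.7 CPM. Il2ra was at 158 CPM with anti-LTβR and at 69.3 CPM in the combination, so that the combination was near untreated. Emb was likewise lower in the combination than with ADU-S100 (200.5 CPM; log2 ratio -1.52, -1.76 to -1.29).

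Among the genes that passed the filters, the lowest in ADU-S100 over untreated cells was Ltf. This gene, which encodes lactoferrin, had 265 UMIs in 48 untreated cells (98.9 CPM) and none in the 134 ADU-S100 cells. The untreated level was 29.8-fold above a floor of 3 UMIs in that library, and the interval of the log2 ratio ended at -4.59. Ltf was at 92.7 CPM in anti-LTβR (31 cells) and 52.5 CPM in the combination (15 cells), and at 3.4 to 14.04 CPM in non-T cells. Galnt18, a glycosyltransferase gene, was at 193 CPM in untreated cells, 16.6 CPM in ADU-S100, 98.8 CPM in anti-LTβR and 74.97 CPM in the combination (ADU-S100 log2 ratio -3.50, -4.39 to -2.81). The integrin gene Itgb8 was at 107, 17.7, 46.0 and 36.5 CPM and was among the 5 lowest genes in each comparison with untreated. Lrrc9 (-2.17) and Tff1 (-2.07) completed the named genes.

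With anti-LTβR the highest of these genes after Gzma were Areg, which encodes the growth factor amphiregulin, at 220 against 40.3 CPM (2.44, 2.13 to 2.77), Myo16 at 145 against 31.0 CPM (2.22, 1.86 to 2.60), Tnfsf11, the gene of the cytokine RANKL, at 46.0 against 13.4 CPM (1.77, 1.18 to 2.39), and Sfn (1.62). Areg came from 23 cells, of which 1 held 24.9% of the UMIs. It was found in 2.23%, 6.71%, 4.85% and 4.55% of macrophage-gated cells in the order untreated, ADU-S100, anti-LTβR and combination, against 2.69%, 10.4%, 7.49% and 7.47% of the selected cells, so both kinds of cells had the lowest share in untreated tumors. The lowest were Mgst2 (-1.54), Calca (-1.40), Vmn2r96 (-1.24), Tesk2 (-1.23) and Itgb8 (-1.21). Itga4, an integrin that binds vessel walls, was at 587 CPM in untreated cells and 265 CPM with anti-LTβR (log2 ratio -1.15).

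Among the genes that passed the same filters, Areg (200 CPM, 23 cells, log2 ratio 2.30, 1.97 to 2.66) and Myo16 (85.3 CPM, 1.46, 1.02 to 1.91) were highest in the combination over untreated, followed by Serpine2 (202 against 93.7 CPM, 1.11), Socs7 (1.09) and Plcxd2 (0.98, under 2-fold). The lowest were Myc, the growth regulator, at 19.7 against 79.5 CPM (-1.98, -2.74 to -1.37), Ccdc115 (-1.90), Gzmc, Itgb8 and Eml5 (-1.44). Myc was below the untreated level in each treated library, at 37.7 CPM with ADU-S100 and 36.8 CPM with anti-LTβR.

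The combination was set directly against each agonist. Over ADU-S100 the highest genes that passed the filters were Penk (1.43), Atp2b2 (1.34), Areg (1.22), Il31ra, an interleukin 31 receptor chain, at 3896 against 1707 CPM (1.19, 1.11 to 1.28), and Ube2c (1.19), and the lowest were Dhx40 (-1.60), Il2ra (-1.54), the activation marker Cd69 at 61.8 against 181 CPM (-1.54, -1.98 to -1.12), Emb (-1.52) and Gramd3 (-1.50). Il31ra was at 2584 to 3180 CPM in non-T cells. In other CD8 T cells it was at 3777 CPM in the combination and 3855 CPM with ADU-S100, and thus did not differ in this way. Over anti-LTβR, 3 of the 10 named genes passed 2-fold, namely Cd200r4, Il2ra (-1.18, -1.58 to -0.81) and Xrcc5, a DNA repair gene (-1.21, -1.95 to -0.56). Nde1, Itga4 (0.85), Traf7 and Clcn4 on the high side and Pola1, Cables1 and Rrm1 on the low side stayed below 2-fold.

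Interferon responses, to which STING signaling leads, were read at day 14. None of 25 interferon-stimulated genes was 2-fold apart from untreated in any treated library, with list medians of 0.00, 0.02 and 0.07. Among all tested genes at most 2.65% were higher and 1.08% lower, so lists of this size would hold few calls. None of 13 class I antigen presentation genes was called, and of 14 interferon γ and GTPase genes Iigp1 was lower with anti-LTβR. Hk2, a hexokinase, was the glycolysis gene called in each treated library (22.4 CPM in untreated and 50.3 to 57.2 CPM in treated cells), and it was at 136 to 163 CPM in non-T cells. Of 16 tested heat shock and immediate early genes, the immediate early genes Fos, Fosb, Jun and Zfp36 were higher with ADU-S100 and with the combination, and Fosb was higher with anti-LTβR. The summed level of the list was 6590, 8534, 7857 and 8530 CPM in the selected cells. It was 6138, 9058, 7107 and 7751 CPM in other CD8 T cells and 10112, 13761, 11257 and 11225 CPM in non-T cells, so the untreated library was lowest in all 3 kinds of cells.

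Other lists held scattered calls. Among 12 tissue residency and chemokine receptor genes, Itgb7, Cd69 and Cxcr4 were higher with ADU-S100, Itgb7 was higher and Itga4 lower with anti-LTβR, and Cxcr4 was higher with the combination. Among costimulation and cytokine receptor genes, Il2ra and Il12rb2 were higher with ADU-S100 and Il2ra with anti-LTβR. Il12rb2, an interleukin 12 receptor chain, was at 149, 335, 195 and 165 CPM.

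**Figure D4:**
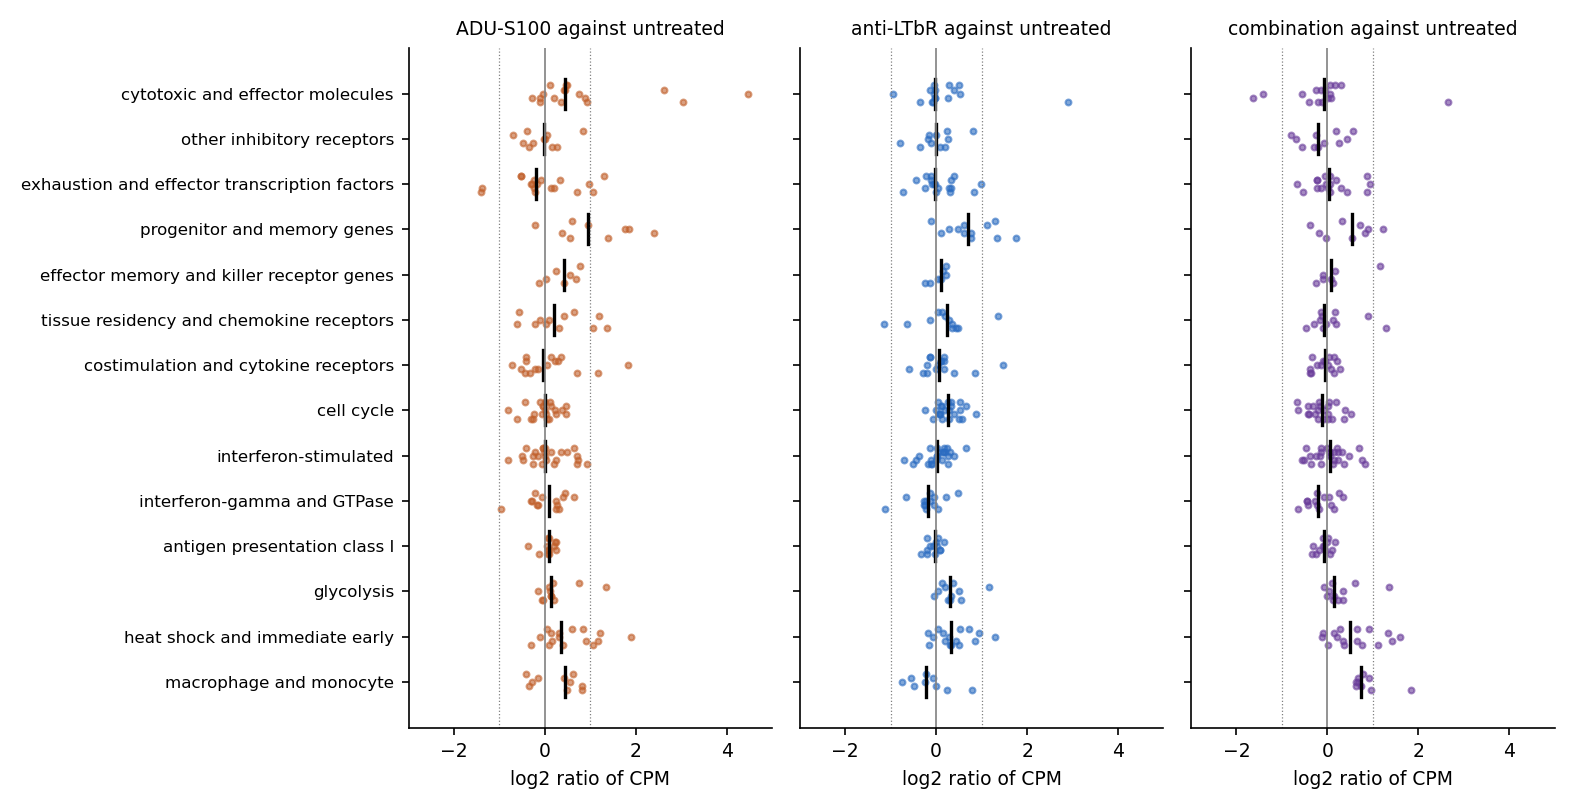
Log2 ratio of CPM to untreated (x axis) of each tested gene of 14 lists (y axis, 1 point per gene), for ADU-S100, anti-LTbR and the combination, with the list median as a black bar and dotted lines at 2-fold. The progenitor and memory list has medians of 0.95, 0.69 and 0.54, and the inhibitory receptor list stays near 0 in the first 2 panels and at -0.21 in the third.

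The libraries were made with a 5′ kit, so that UMIs of T cell receptor variable (V) genes are in the counts. A V gene is not a clonotype, related V genes may share reads, and cells of 1 clone are not independent. A β chain V gene was found in 342, 92, 187 and 167 of the selected cells and an α chain V gene in 204, 74, 78 and 53, against at most 0.1998% of macrophage-gated cells. Each cell was given the V gene with most UMIs.

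The α chain gene Trav14d-3-dv8 was the most frequent in the selected cells of all 4 libraries. It was found in 54.9% (47.8 to 61.9) of untreated, 43.2% (31.8 to 55.3) of ADU-S100, 57.7% (46.0 to 68.8) of anti-LTβR and 41.5% (28.1 to 55.9) of combination cells with an α chain V gene. In other CD8 T cells it was found in 9.43%, 10.8%, 6.15% and 10.0%, and no interval reached that of the selected cells of the same library. The whole Trav14 family made up 58.3%, 44.6%, 62.8% and 43.4% of the selected cells and 9.23% to 16.0% of the other CD8 T cells. The Trav14d-3-dv8 cells with a β chain V gene used 7, 7, 5 and 3 different β chain V genes, of which the most frequent was in 56 of 97, 10 of 21, 18 of 32 and 10 of 14 cells.

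The most frequent β chain genes differed from library to library. Trbv13-3 led in untreated cells with 36.3% (31.2 to 41.6), followed by Trbv29 with 15.2% and Trbv15 with 11.7%. With ADU-S100 Trbv29 (17.4%) and Trbv3 (14.1%) led. With anti-LTβR Trbv19 was found in 29.4% (22.99 to 36.5), and in the combination Trbv13-1 in 33.5% (26.4 to 41.2) and Trbv3 in 30.5% (23.7 to 38.1). Trbv13-3, the leading gene of untreated cells, was found in 4.35%, 6.42% and 0.599% of the cells of the ADU-S100, anti-LTβR and combination libraries. In other CD8 T cells no β chain gene exceeded 20.98% (14.6 to 28.6), the share of Trbv3 in the combination. This interval overlapped that of Trbv3 in the selected cells. Trbv13-3 was also the most frequent in untreated other CD8 T cells, at 14.4%.

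**Figure D5:**
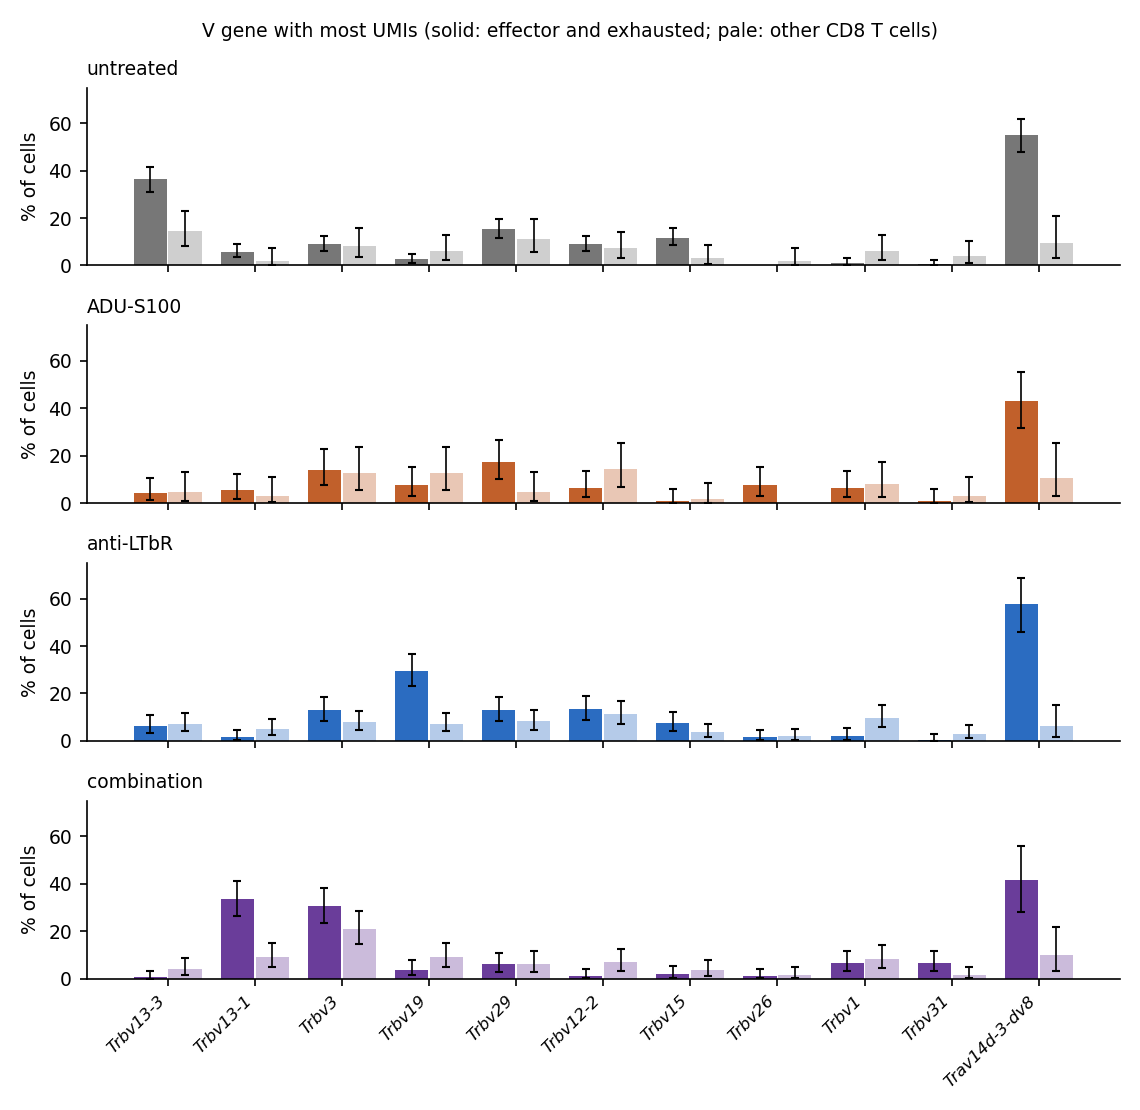
Share of cells (y axis, percent of cells with a V gene of that chain) by V gene with most UMIs (x axis, 10 β chain genes and the α chain gene Trav14d-3-dv8) in each library, for effector and exhausted CD8 T cells (solid) and other CD8 T cells (pale), with exact 95% binomial intervals. The tallest β chain bar is Trbv13-3 in untreated, Trbv29 in ADU-S100, Trbv19 in anti-LTbR and Trbv13-1 in the combination, and the Trav14d-3-dv8 bar is taller in the solid than in the pale cells of all 4 libraries.

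Pairing was seen where both chains were found. Trav14d-3-dv8 was carried by 56 of 80 untreated Trbv13-3 cells, 25 of 43 untreated, 10 of 13 ADU-S100 and 7 of 7 anti-LTβR Trbv29 cells, 18 of 19 anti-LTβR Trbv19 cells and 10 of 17 combination Trbv13-1 cells. It was carried by none of 20, 10, 7 and 11 Trbv3 cells in untreated, ADU-S100, anti-LTβR and combination tumors. Trbv3 cells of the combination were paired with Trav16n in 6 of those 11.

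Levels of several genes named above differed between V gene groups within a library. Gzmf with ADU-S100 was at 3047 CPM in the 16 Trbv29 cells and at 20.3 CPM in the 13 Trbv3 cells, with a UMI in 5 and 1 of them. Trbv29 cells were also high in untreated (340 CPM, a UMI in 8 of 52 cells) and anti-LTβR (856 CPM, 3 of 24 cells), whereas untreated Trbv13-3 cells were at 34.6 CPM and untreated Trbv15 cells at 741 CPM. Without the most frequent β chain gene of each library, the log2 ratio of Gzmf between ADU-S100 and untreated was 1.16 in place of 2.63. Areg in anti-LTβR was at 656 CPM in the 55 Trbv19 cells, of which 8 had a UMI, and at 0 in the 25 Trbv12-2 cells, and its log2 ratio to untreated was 1.37 without the Trbv19 cells and the untreated Trbv13-3 cells. Itgb8 was at 139 CPM in untreated Trbv13-3 cells and 145 CPM in anti-LTβR Trbv19 cells. In untreated Trbv12-2, Trbv3, Trbv29 and Trbv15 cells it was at 9.68 to 78.3 CPM. Galnt18 was at 257 CPM in untreated Trbv13-3 cells and at 7.12 to 165 CPM in those groups. Myc was at 124 CPM and at 29.7 to 92.0 CPM in the same way.

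Tox also differed between V gene groups. In untreated cells it was at 1882 CPM in the 124 Trbv13-3 cells, 1481 in Trbv12-2, 1428 in Trbv3, 1182 in Trbv15 and 1168 in Trbv29 cells. In anti-LTβR it was at 1527 CPM in Trbv19 cells and 493 to 617 CPM in the Trbv3, Trbv29 and Trbv12-2 cells. These are the 4 most frequent β chain genes of each library, with Trbv12-2 and Trbv3 tied in untreated cells. Those of ADU-S100 lay at 392 to 770 CPM, below the untreated groups. In the combination Tox was at 1315 CPM (1167 to 1477) in Trbv3 cells and at 1031 to 1139 CPM in the other 3 groups. The interval of each group overlapped those of untreated Trbv15 (1058 to 1316) and Trbv29 cells (1061 to 1284). In Trbv3 cells, which were among these groups in each library, it was at 1428, 770, 493 and 1315 CPM in untreated, ADU-S100, anti-LTβR and combination cells. With the most frequent β chain gene left out of every library, the log2 ratio to untreated was -1.15 in ADU-S100, -0.78 in anti-LTβR and -0.37 in combination cells. Ltf was at 384 CPM in Trbv19 cells of anti-LTβR, 192 CPM in Trbv15 and 150 CPM in Trbv13-3 cells of untreated tumors, and 18.9 CPM in untreated Trbv29 cells, with a UMI in 17 of 55, 9 of 40, 18 of 124 and 3 of 52 cells.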

How the data were processed

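Per the labels and the file headers, the authors deposited 1 feature-barcode matrix per group, with UMI counts per gene and cell that were not normalized, from 5′ libraries of CD45+ cells. The headers name Cell Ranger 8.0.1, the labels version 7.1.0 and the mm10 build, and the kit version also differs between labels and methods, so no coordinates are given. The matrices hold 33696 features and 8730, 15404, 14634 and 16322 barcodes (untreated, ADU-S100, anti-LTβR, combination), of which 7776, 14326, 14041 and 15698 were within the limits.

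The cells and gene lists were chosen with earlier results of these data known. With 1 library per group no test was run. UMIs were summed over cells, and ratios carry exact binomial, levels exact Poisson, shares Clopper-Pearson and ratios of shares log-normal 95% intervals. Doublets were kept. A gene that the naming rule took is not reported here. Genes named by size were the 5 highest and 5 lowest per comparison with at least 100 UMIs, 10 cells with a UMI, no cell above 25% of the UMIs and a CPM at or above that of non-T cells, in the higher library, without immunoglobulin, receptor, mitochondrial, ribosomal, hemoglobin, sex-linked, predicted and rule genes. A level of 0 UMIs was bounded at 3 UMIs in that library. Thinning drew 1000 UMIs per cell. Cells were scored for doublets with Scrublet in scanpy 1.11.5 as an alternative. Scripts (Python 3.11.15, scipy 1.17.1) were tested on simulated data.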

Additional observations from a re-analysis of the deposited data

How the results depend on the processing

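No paired analysis was possible because each group had 1 library. Alternatives were run one at a time, and those on V genes, plasma cell genes, members against other CD8 T cells and thinning of the last condition were chosen after seeing the data. Of the 50 values of genes named by size, all kept their direction without limits on cells and without the cell with most UMIs of the gene, and 40 and 42 of 42 remained past 2-fold. Fewer values could be formed with at least 3 of the 4 genes (36), without the most frequent Trbv gene (33) and in thinned cells, where 1 could be formed and was no longer past 2-fold.

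Counts of genes at least 2-fold apart depended on depth. In the order ADU-S100, anti-LTβR and combination against untreated, then combination against ADU-S100 and against anti-LTβR, they were 190, 100, 199, 91 and 95. They were 90, 46, 108, 49 and 50 with a minimum of 200 UMIs, 3456, 3347, 3474, 4322 and 3261 with none, and 7, 2, 0, 1 and 1 in thinned cells, where fewer genes reached 100 UMIs. Without cells with 3 myeloid or B cell genes they were 125 (ADU-S100 against untreated), 89 (combination against untreated), 59 and 37 (combination against ADU-S100 and anti-LTβR). For ADU-S100 against untreated the count was 125 with at least 3 of the 4 genes, 295 without limits on cells and 120 without the most frequent Trbv gene. Without limits it was 184 for anti-LTβR, and with the highest doublet scores removed 60 for combination against anti-LTβR. Without limits on cells, 30.4% of the calls were higher for anti-LTβR and 50.3% for the combination against untreated, and 33.6% for the combination against ADU-S100, in place of 72.0%, 78.9% and 64.8%.

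In the order untreated, ADU-S100, anti-LTβR and combination, the share of CD8 T cells was 53.1%, 33.8%, 27.8% and 23.7% with at least 3 of the 4 genes, 41.2%, 36.2%, 34.3% and 32.0% with the whole rule read in thinned cells, and 34.6%, 28.6%, 22.5% and 22.9% with only the 4 genes read there. The share of all cells was 3.69%, 0.558%, 1.44% and 1.04% with 3 genes, 1.86%, 0.327%, 0.923% and 0.886% in thinned cells, and 9.05%, 1.89%, 3.59% and 2.95% without cells with 3 myeloid or B cell genes. In thinned cells Tcf7 was found in 0%, 4.76%, 0% and 0% and Mki67 or Top2a in 14.9%, 16.7%, 15.3% and 14.2%, and 9 and 18 genes were at least 2-fold higher and lower than in other CD8 T cells. With at least 2 UMIs of the V gene, Trav14d-3-dv8 made up 55.8% in ADU-S100.

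The values that reversed concerned genes of myeloid and B cells. In the combination against untreated without limits on cells these were Cd74 (-0.068), H2-Ab1 (-0.11), Itgam (-0.023), Tyrobp (-0.0898) and the dendritic cell list median (-0.086). In the combination against anti-LTβR they were Lyz2 (-0.36 without cells with 3 myeloid or B cell genes), Retnlg (-0.67 without the cell with most UMIs), and S100a8 and the neutrophil list median (-0.26 with at least 3 of the 4 genes). In the combination against ADU-S100 it was S100a8 (-0.22 without the cell with most UMIs). The cause was not tested.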

Other observations

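Killer cell receptor genes were measured alongside. Klrc1, the inhibitory receptor chain NKG2A, was at 410, 493, 437 and 335 CPM in untreated, ADU-S100, anti-LTβR and combination cells, and Klrd1, its partner CD94, at 653, 665, 707 and 615 CPM. Cx3cr1, a chemokine receptor of effector cells, was at 132, 120, 120 and 144 CPM, and Klrg1, a marker of short-lived effector cells, at 8.59, 4.43, 5.52 and 1.87 CPM, in 14, 2, 7 and 1 cells. The tissue residency gene Cxcr6 was at 543, 368, 556 and 495 CPM, and Itgae, the integrin chain CD103, at 11.2, 17.7, 27.0 and 10.3 CPM in 12, 12, 11 and 6 cells.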
